A study of Mus musculus with 8 samples.

Results

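The 45 genes described here encode chromatin repressors, nucleosome remodellers and enzymes that write or remove DNA methylation, and the question is which of them carry c-Jun binding in primed pluripotent stem cells. They comprise 13 NuRD genes, 8 genes of the NCoR, Sin3 and CoREST corepressors, 7 Polycomb genes, 6 BAF genes, 8 DNA methylation genes and 3 H3K9 methyltransferase genes, out of 21000 mouse protein-coding genes with a curated RefSeq transcript. The members were listed by name, and a gene was counted as having a peak when the centre of a c-Jun peak lay within 10 kb of one of its transcription start sites (TSSs). The rule for membership uses no measured value, although the list was drawn up with earlier results of these data known.

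c-Jun is a subunit of AP-1, a dimeric transcription factor that binds the words TGACTCA and TGAGTCA, and in some dimers the CRE word TGACGTCA. AP-1 proteins work with chromatin complexes: c-Jun can contact the NuRD subunit Mbd3, and AP-1 can bring the BAF remodeller to enhancers. NuRD couples nucleosome remodelling to histone deacetylation, NCoR and Sin3 carry deacetylases, Polycomb complexes place H3K27 methylation and H2A ubiquitin, BAF opens nucleosomes, and the Dnmt and Tet enzymes methylate and oxidise cytosine. The measurements below are of c-Jun binding near the genes of these proteins, not of the complexes themselves or of their expression.

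EpiSCs are epiblast stem cells, a primed pluripotent line. The EpiSC group is the wild type B4 line, cultured feeder-free with Activin A and bFGF per the labels. Its labels give the strain as CBA/CaJ X C57BL/6J, whereas the study's methods describe a different cross, with OG2 males, and the sources do not settle which applies. The kEpiSC group is an EpiSC line that also carries a Klf4 transgene under the CAG promoter. The study describes an Oct4-GFP reporter in kEpiSCs. It also scored GFP-positive colonies from B4 EpiSCs, so the reporter is not taken here as a difference between the lines. Each line had 2 c-Jun ChIP and 2 input libraries, 8 in all, and 1 peak list per line was deposited, so no value has a replicate error and replicates could not be compared. The labels name the antibody target as c-Jun, while the text of their extraction protocol speaks of H3K27ac. The EpiSC list held 16166 peaks with a median of 10 reads at the summit (quartiles 8 and 13) and the kEpiSC list 6032 peaks with a median of 14 (quartiles 11 and 18). The shorter kEpiSC list finds fewer genes of any kind, and a gene without a kEpiSC peak was not detected at this depth. Whether Klf4, the line or the calling made the lists differ cannot be told apart. RNA markers of the cells were not measured in these libraries.

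In EpiSCs, 14 of the 45 genes (31.1%, 95% Wilson interval 19.5 to 45.7) were within 10 kb of c-Jun binding, where 21.8% of all protein-coding genes did. Genes of the members' lengths, that is all genes weighted to the classes of gene length (10 in all) that the members come from, were so placed in 24.1% of cases, which lies inside the members' interval. The 14 genes were Mbd2, Mbd3, Gatad2a and Rbbp4 of NuRD, Hdac3, Tbl1x and Kdm1a of the corepressors, Ring1 of Polycomb, Smarca4, Smarcc1 and Arid1a of BAF, and Dnmt1, Dnmt3a and Tet3 of DNA methylation. In kEpiSCs, 4 of the 45 genes (8.89%) had a peak, against 8.27% of all genes and 9.37% of genes of the members' lengths. These were Kdm1a, Dnmt1 and Tet3, which had a peak in both lists (6.67%, against 6.58% of all genes), and Ehmt2, which had one in kEpiSCs and none in EpiSCs (2.22%, against 1.69% of all genes). In kEpiSCs the members' share thus stood near that of other genes. In EpiSCs it was higher, with an interval that held both shares of other genes, and the difference was not tested.

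**Figure D1:**
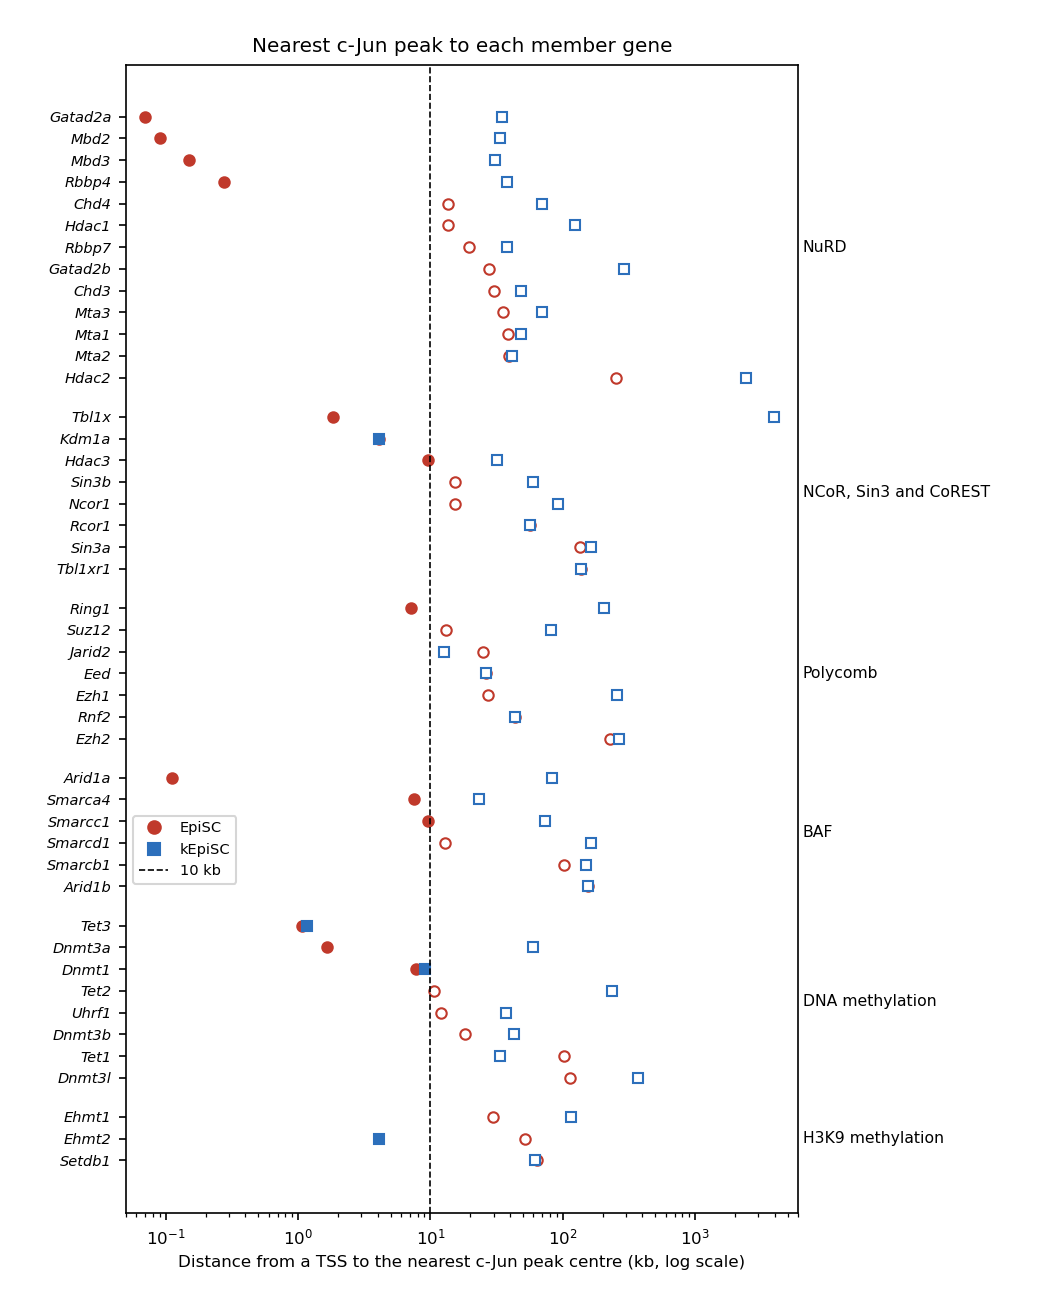
Distance in kb (log scale) from a TSS of each of the 45 genes to the nearest c-Jun peak centre in EpiSCs (circles) and kEpiSCs (squares), with filled symbols within 10 kb and the dashed line at 10 kb. In EpiSCs 14 genes lie left of the line, 5 of them within 1 kb, and in kEpiSCs 4 genes do.

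Sequences are shown first for 3 peaks within 10 kb of a member, at Tet3, Dnmt1 and Kdm1a. They were chosen because they hold an AP-1 word in their central 200 bp, and they were also found in both lists. The word lies 29, 7 and 22 bp from the summits shown, in that order. The sequences give 121 bases around the summit (of the EpiSC peak for Tet3 and of the kEpiSC peak, the higher-scoring one, for Dnmt1 and Kdm1a) on the plus strand of mm10 (GRCm38.p6), with the AP-1 word in capitals. The Tet3 window is chr6:83442744-83442864, the Dnmt1 window chr9:20943479-20943599 and the Kdm1a window chr4:136598563-136598683.
Tet3, intron 2: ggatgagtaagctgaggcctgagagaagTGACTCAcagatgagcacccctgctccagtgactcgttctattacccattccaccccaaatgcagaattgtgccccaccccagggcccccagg
Dnmt1, intron 1: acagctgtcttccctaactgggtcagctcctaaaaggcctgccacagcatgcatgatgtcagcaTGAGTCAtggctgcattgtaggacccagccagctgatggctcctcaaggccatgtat
Kdm1a, intron 1: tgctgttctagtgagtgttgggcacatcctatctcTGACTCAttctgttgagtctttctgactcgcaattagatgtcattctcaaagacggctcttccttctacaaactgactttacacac

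A CpG-rich peak is shown for contrast, the highest-scoring one near a NuRD gene, in intron 1 of Mbd3 (chr10:80398843-80398963). It holds no AP-1 word and 15 CpG dinucleotides, which are in capitals. Not all peaks without the word were CpG-rich. The highest-scoring peaks near BAF, H3K9 and corepressor genes, at Smarca4, Ehmt2 (in kEpiSCs) and Tbl1x, held no AP-1 word either. They had 1, 2 and 5 CpGs in 121 bases.
Mbd3, intron 1: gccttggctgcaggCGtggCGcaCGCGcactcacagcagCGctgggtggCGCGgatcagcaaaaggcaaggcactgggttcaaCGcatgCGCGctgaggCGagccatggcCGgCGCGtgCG

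Promoter peaks were found at 4 NuRD genes and 1 BAF gene. With a promoter taken as 1000 bp upstream to 100 bp downstream of a TSS, 5 of the 45 genes had an EpiSC peak there (11.1%, interval 4.84 to 23.5), where 7.26% of all genes and 8.57% of genes of the members' lengths did. The 5 were Mbd2, Mbd3, Gatad2a, Rbbp4 and Arid1a. The first 4 are of the 13 NuRD genes (30.8%, interval 12.7 to 57.6, against 8.71% at the members' lengths). Arid1a is 1 of the 6 BAF genes (16.7%, interval 3.01 to 56.4, against 8.75% at the members' lengths). No promoter of the corepressor, Polycomb, DNA methylation or H3K9 genes held a peak. In kEpiSCs none of the 45 promoters held a peak, where 2.01% of all promoters did, and the kEpiSC peak closest to a NuRD TSS lay 30927 bp away. Of the other genes of the same complexes, 9 of 89 had an EpiSC promoter peak (10.1%, against 8.01% at their lengths). They were 0 of 7 for NuRD (interval 0 to 35.4%), 3 of 10 for H3K9 methylation (30%), 3 of 20 for BAF (15%), 2 of 17 for the corepressors (11.8%), 1 of 25 for Polycomb (4%) and 0 of 10 for DNA methylation. The intervals of the 6 groups of members overlap and the difference between groups was not tested.

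The Mbd2 peak lay 90 bp upstream of the TSS. Mbd2 encodes the methyl-CpG-binding subunit of NuRD. The peak had a fold enrichment of 7.41 over the local background, from 13 reads at its summit, and 20 CpGs in its central 200 bp. It had no partner in kEpiSCs, and 29.4% of the EpiSC list scored higher.

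Mbd3, which encodes the alternative MBD subunit and does not bind methyl-CpG as Mbd2 does, had 2 EpiSC peaks. The one at 630 bp into the gene (chr10:80398816-80398986), whose sequence is shown above, had a fold of 8.44 and 23 reads, and the one 149 bp upstream had a fold of 4.31 and 13 reads. The local background at the pair was 2.90 and 3.55 times the median of the list, and its part in these peaks was not tested.

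Gatad2a encodes p66-alpha, which links the MBD subunit to the Chd ATPase. Its peak 69 bp upstream of a TSS had a fold of 6.35 and 11 reads. It held TGAGTCA only towards its edge, 254 bp from the summit, and this word also falls in the 300 bp RefSeq promoter of the gene, 222 bases before the start.

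Rbbp4, a histone-binding WD40 protein that NuRD shares with Sin3 and Polycomb, had peaks 276 bp upstream and 676 bp downstream of its TSS. Their folds were 5.24 and 4.96, from 8 and 7 reads, so 74.5% and 77.5% of the list scored higher. The upstream peak also lay in the promoter of the neighbour Zbtb8os. The 2 peaks are thus among the weaker calls of the list.

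Within 10 kb the NuRD genes with an EpiSC peak were the same 4 of 13 (30.8%, interval 12.7 to 57.6, against 24.4% at their lengths). The NuRD share thus stood nearer to that of other genes within 10 kb than in promoters. The other 9 NuRD genes had no peak within 10 kb. The nearest EpiSC peak lay 13462 bp from a TSS of Chd4, the main remodelling ATPase, 13540 bp from Hdac1, and 19429 bp from Rbbp7. For Gatad2b, Chd3, Mta3, Mta1 and Mta2 it lay between 27835 and 39070 bp away. Hdac2 stood apart, with its nearest EpiSC peak at 253558 bp and its nearest kEpiSC peak at 2441264 bp.

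**Figure D2:**
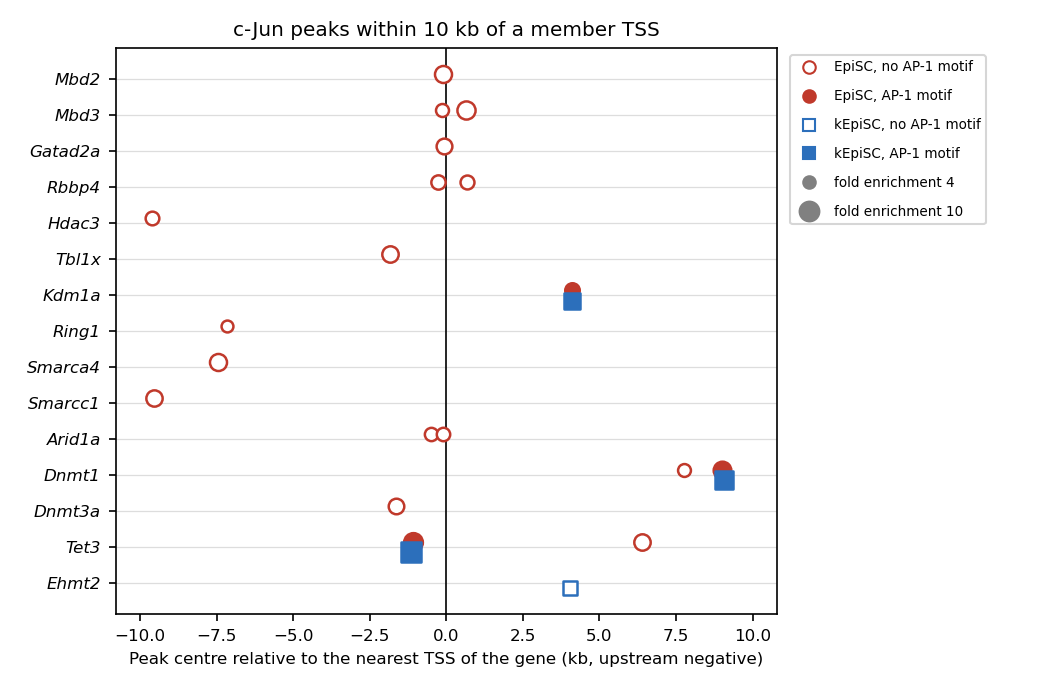
Position in kb of each c-Jun peak centre relative to the nearest TSS of its gene (upstream negative), for the 15 genes with a peak within 10 kb in either list. Circles are EpiSC and squares kEpiSC peaks, symbol area is proportional to fold enrichment, and filled symbols hold an AP-1 word in their central 200 bp: those at Kdm1a, Dnmt1 and Tet3 are filled in both lists.

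Among the corepressor genes, 3 of 8 (37.5%, against 23.7% at the members' lengths) had an EpiSC peak within 10 kb. Kdm1a, the H3K4 demethylase LSD1 that acts with the CoREST scaffold Rcor1, had a peak in intron 1, 4103 bp downstream of its TSS (chr4:136598388-136598852). Its fold was 5.40 with 14 reads in EpiSCs and 6.95 with 13 reads in kEpiSCs, and TGACTCA lay 21 bp from the EpiSC summit. The local background there was 2.81 times the median of the EpiSC list and 1.22 times that of the kEpiSC list. Tbl1x, a WD40 subunit of NCoR, had an EpiSC peak 1843 bp upstream with a fold of 6.88 and 12 reads, and no AP-1 word. Hdac3, the deacetylase of NCoR, had a peak 9612 bp upstream with a fold of 4.79 from 6 reads. That peak lay in intron 11 of Fchsd1, whose TSS is nearer, at 5131 bp, and is close to the 10 kb limit.

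The remaining corepressor genes were further from a peak. Sin3b and Ncor1 were 15413 and 15431 bp from the nearest EpiSC peak, and Rcor1 was 57026 bp. Sin3a, the other Sin3 scaffold, and Tbl1xr1 had none within 100 kb, at 136118 and 138367 bp.

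Polycomb had the lowest share among the groups with a peak, 1 of 7 genes (14.3%, interval 2.57 to 51.3), against 23.8% at the members' lengths. The gene was Ring1, a catalytic subunit of PRC1, and its peak (chr17:34031766-34031928) lay 7167 bp upstream, in the first exon of Rxrb and 35 bp from the Rxrb TSS. It had a fold of 3.60 from 9 reads and a background 2.81 times the median of the list, and 95.6% of the list scored higher. Of the PRC2 core, Suz12 was 13138 bp, Eed 26257 bp, Ezh1 27405 bp and Ezh2 229355 bp from the nearest EpiSC peak. Rnf2, the other PRC1 ligase, was 43319 bp away. Jarid2, which guides PRC2, was 25022 bp from an EpiSC and 12653 bp from a kEpiSC peak.

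Of the BAF genes 3 of 6 (50%, interval 18.8 to 81.2, against 24.1% at the members' lengths) had an EpiSC peak. In kEpiSCs 0 of 6 had one (interval 0 to 39%), against 8.27% of all genes and 9.33% at their lengths. Smarca4, which encodes the ATPase BRG1, had a peak 7469 bp upstream (chr9:21608643-21608757) with a fold of 7.43 from 10 reads, and no other protein-coding TSS was nearer, but the peak centre lay in the promoter of the gene model Gm7904. Smarcc1, the BAF155 scaffold, had a peak 9556 bp upstream with a fold of 6.80 from 9 reads, and the TSS of Dhx30 was nearer, at 4852 bp. Arid1a, the subunit that defines canonical BAF, had 2 promoter peaks, at different TSSs. The peak 111 bp upstream of the gene's outermost TSS had a fold of 4.61 from 14 reads and a background 3.55 times the median of the list. The other, in intron 1 and 485 bp upstream of an internal TSS, had a fold of 4.52 from 10 reads and a background 2.26 times that median. Smarcd1 was 12829 bp from a peak, and Smarcb1 and Arid1b were 101351 and 155855 bp away.

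The DNA methylation genes had a peak in 3 of 8 cases in EpiSCs (37.5%, against 24.2% at the members' lengths) and 2 of 8 in kEpiSCs (25%, interval 7.15 to 59.1, against 8.27% of all genes and 9.88% at the members' lengths). Dnmt1, the maintenance methyltransferase, had its main peak in intron 1, 9004 bp downstream of a TSS (chr9:20943465-20943773). Its fold was 7.94 with 14 reads in EpiSCs and 9.18 with 19 reads in kEpiSCs. TGAGTCA lay 3 bp from the EpiSC summit. A weaker EpiSC peak, 7773 bp downstream of the same TSS, had a fold of 4.23 from 7 reads and no kEpiSC partner.

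Tet3, a dioxygenase that oxidises 5-methylcytosine, held the strongest peak near a member. This peak lay in intron 2, 1072 bp upstream of an internal TSS (chr6:83442637-83442862), with a fold of 8.99 and 24 reads in EpiSCs and 10.7 and 20 reads in kEpiSCs, and 9.16% and 12.5% of the lists scored higher. TGACTCA lay 29 bp from the EpiSC summit. The local background of this peak was 2.81 times the median of the EpiSC list and 1.1 times that of the kEpiSC list. A further EpiSC peak, in intron 3 and 6381 bp downstream of the same internal TSS, had a fold of 6.88 from 12 reads. It had no AP-1 word and no kEpiSC partner.

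Dnmt3a, a de novo methyltransferase, had its EpiSC peak in intron 6, 1651 bp upstream of an internal TSS, from 9 reads. Its partner Dnmt3b was 18267 bp and the cofactor Dnmt3l 114432 bp from the nearest EpiSC peak. Tet2 fell just outside the limit, at 10612 bp, and Uhrf1, which brings Dnmt1 to hemimethylated DNA, was at 12023 bp. Tet1 was 101546 bp from an EpiSC peak and 33349 bp from a kEpiSC peak.

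The H3K9 methyltransferase genes had no EpiSC peak within 10 kb, where a count of 0 of 3 carries an interval of 0 to 56.1%. Ehmt1 was 29924 bp, Ehmt2 51803 bp and Setdb1 63434 bp away. Ehmt2, which encodes G9a, was the only member with a peak in kEpiSCs alone. It lay 4054 bp downstream of the TSS, in coding exon 5 (chr17:34902965-34903083), with a fold of 5.60 from 9 reads and no AP-1 word, and 84.9% of the kEpiSC list scored higher.

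**Figure D3:**
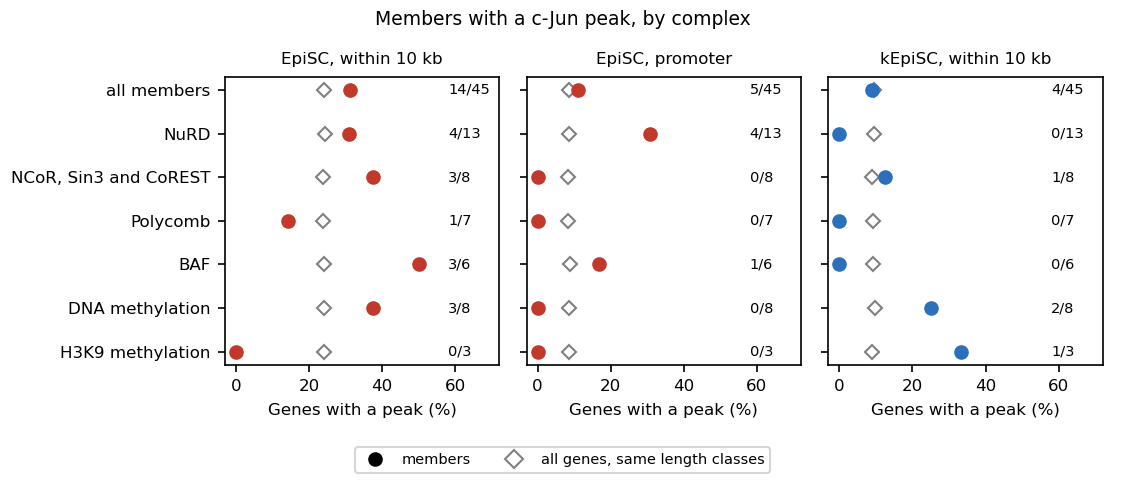
Percent of members with a peak, for all members and for each group, within 10 kb in EpiSCs, in a promoter in EpiSCs and within 10 kb in kEpiSCs (filled circles, counts at the right), beside the share of all protein-coding genes weighted to the same classes of gene length (open diamonds). NuRD stands at 30.8% against 8.71% in promoters, and at 30.8% against 24.4% within 10 kb in EpiSCs. All members stand at 31.1% against 24.1% within 10 kb in EpiSCs and at 11.1% against 8.57% in promoters. In kEpiSCs they lie near the diamond, at 8.89% against 9.37%.

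The 19 EpiSC peaks within 10 kb of a member were compared with the 5180 EpiSC peaks within 10 kb of any protein-coding TSS. Their median fold was 6.20 (range 3.60 to 8.99), against 5.82, and their median reads 11 (range 6 to 24), against 10. An AP-1 word stood in the central 200 bp of 3 of the 19 (15.8%, interval 5.52 to 37.6), against 35.7% of the 5180 and 45.9% of all EpiSC peaks. No member peak held the CRE word (interval 0 to 16.8%), against 3.42% of the 5180. Of the 19, 8 lay in a promoter of some gene (42.1%), against 29.1% of the 5180, and promoter peaks as a class held an AP-1 word in 16.3% of cases.

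Of the 19 peaks, 3 overlapped a kEpiSC peak (15.8%, interval 5.52 to 37.6), against 23.2% of the 5180. The AP-1 word and the presence in kEpiSCs went together in the 19, which rests on 3 peaks. The 3 peaks with the word, at Tet3, Dnmt1 and Kdm1a, overlapped a kEpiSC peak, and of the 16 without it none did (interval 0 to 19.4%). Among all EpiSC peaks within 10 kb of a TSS, 33.7% of the 1850 with the word and 17.3% of the 3330 without it overlapped a kEpiSC peak, so the direction is that of the whole list. The medians of fold in those classes were 6.84 and 5.45, and the part of peak strength in the sharing was not tested. Deeper in the members' bodies the split did not hold for every peak. The Rbbp4 peak 10405 bp from its TSS held the word and was not shared. The Gatad2a peak 34600 bp from its TSS was shared without the word.

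**Figure D4:**
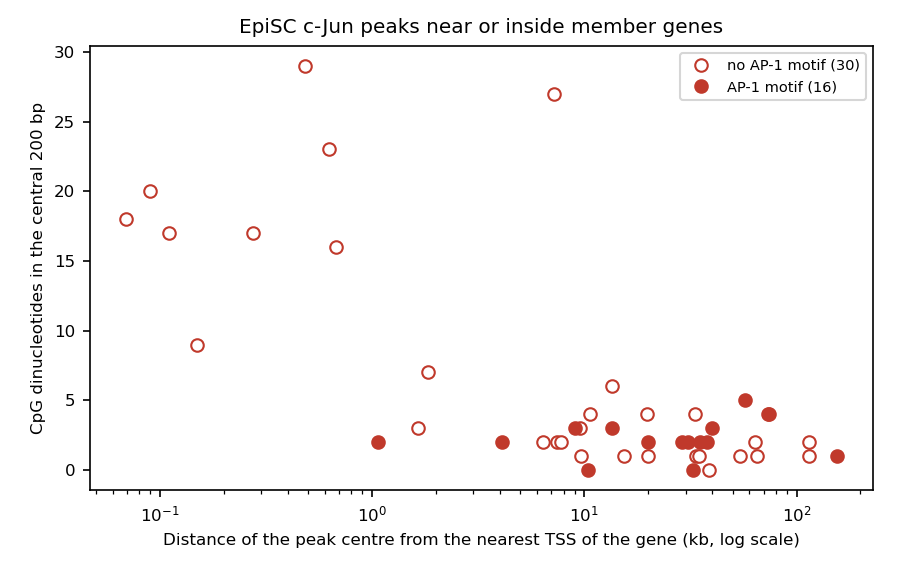
CpG dinucleotides in the central 200 bp of each EpiSC peak near or inside a member against its distance in kb from the nearest TSS of that gene (log scale). Filled points hold an AP-1 word. The 8 peaks within 1 kb of a TSS have 9 to 29 CpGs and no AP-1 word, and beyond 1 kb only the Ring1 peak, at the Rxrb promoter, has more than 7.

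CpG content followed the distance from the TSS. The 6 peaks in a member's own promoter held a median of 17.5 CpGs in 200 bp (range 9 to 29) and had a median fold of 4.93. Promoter peaks in the whole EpiSC list held a median of 15 CpGs and had a median fold of 5.35, so CpG-rich sequence is a property of promoter peaks in general. The 27 EpiSC peaks deeper in members' bodies held a median of 2 (range 0 to 6). Between 1 kb and 10 kb from a member TSS and outside any promoter, CpG counts of peaks with and without an AP-1 word overlapped. Peaks with the word, at Kdm1a, Dnmt1 and Tet3, held 2 to 3 CpGs. Without it, the peaks at Hdac3, Smarcc1 and Dnmt3a and the weaker peaks at Dnmt1 and Tet3 held 1 to 3, and the Tbl1x peak held 7.

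In the 300 bp around RefSeq promoters, 40 of the 45 genes had a sequence. An AP-1 word stood in 2 of them (5%), Gatad2a and Smarcb1, against 5.5% of 16853 genes, and the CRE word in none, against 2.62%.

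Further c-Jun peaks lay deeper in the genes. In EpiSCs 17 of the 45 gene bodies (37.8%, interval 25.1 to 52.4) held a peak centre, where 19.8% of all gene bodies did and 31.4% at the members' lengths, and in kEpiSCs 10 did (22.2%), against 9.21% of all and 15.6% at the members' lengths. The members are long, with a median of 41018 bp against 16690 bp for all genes. In EpiSCs 7 of 13 NuRD bodies held a peak (53.8%, interval 29.1 to 76.8, against 27.2% at their lengths), 4 of 8 DNA methylation bodies did (50%, against 31.4%), and 1 of 7 Polycomb bodies did (14.3%, against 28.4%). The corepressors had 3 of 8 (37.5%, against 36.7%), BAF 2 of 6 (33.3%, against 37.5%) and H3K9 methylation 0 of 3 (against 30%). Over 10 kb from the gene's TSSs there were 27 EpiSC peaks, 13 with an AP-1 word in the central 200 bp (48.1%, interval 30.7 to 66.0, against 45.9% of all EpiSC peaks) and 6 that overlapped a kEpiSC peak (22.2%, against 28.3% of all EpiSC peaks). The intervals of the AP-1 share overlap between these peaks and the 19 nearer ones, and the difference was not tested.

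The highest folds of any member peak were in this class. Rcor1 had a peak in intron 4, 57026 bp from its TSS, with a fold of 13.7 from 19 reads in EpiSCs and 8.64 from 21 reads in kEpiSCs, and a second EpiSC peak in its last exon with a fold of 12.7. Rbbp4 had a peak in intron 3, 10405 bp from its TSS and just outside the limit, with a fold of 13.2 from 19 reads and TGACTCA 3 bp from the summit. It had no kEpiSC partner although only 4.57% of the EpiSC list scored higher. Arid1b had a peak in intron 4 with a fold of 11.2 in EpiSCs and 6.95 in kEpiSCs. The following sequences, around the EpiSC summits of Rcor1 (chr12:111096333-111096453) and Rbbp4 (chr4:129324901-129325021) and within the Kdm1a intron 8 peak (chr4:136570115-136570231), are shown for the position and number of their words, in capitals, and were chosen after their values were seen.
Rcor1, intron 4: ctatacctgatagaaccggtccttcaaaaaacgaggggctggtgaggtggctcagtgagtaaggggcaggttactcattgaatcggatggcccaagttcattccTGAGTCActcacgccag
Rbbp4, intron 3: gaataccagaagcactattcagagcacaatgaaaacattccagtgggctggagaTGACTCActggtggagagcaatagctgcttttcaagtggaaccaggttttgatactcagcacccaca
Kdm1a, intron 8: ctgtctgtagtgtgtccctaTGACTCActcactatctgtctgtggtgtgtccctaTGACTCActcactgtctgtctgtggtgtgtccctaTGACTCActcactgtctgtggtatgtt

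The Kdm1a peak in intron 8 (726 bp wide in EpiSCs and 154 bp in kEpiSCs) holds a tandem repeat with 3 copies of TGACTCA. Its fold was 3.96 in EpiSCs, at a background 2.81 times the median of the list, and 6.66 in kEpiSCs, at 1.12 times. Kdm1a thus had shared peaks at 4103 and 32589 bp from its TSS, and an EpiSC peak in intron 7 with a fold of 5.91. Gatad2a had 2 shared peaks in intron 2, with folds of 8.47 and 5.40 in EpiSCs and 7.78 and 6.70 in kEpiSCs, and the first held TGAGTCA 7 bp from its summit. Mbd2 had a shared peak in intron 3 with a fold of 8.85 from 16 reads in EpiSCs and 9.96 from 17 reads in kEpiSCs. AP-1 words lay 15 bp or less from the Mbd2 summit but outside the central 200 bp of that wide peak. Jarid2, the Polycomb gene with peaks inside, had 4 in EpiSCs with folds of 4.63 to 6.71 and a different one in kEpiSCs with a fold of 4.35. Tet2 had 3 EpiSC peaks in intron 1 with folds of 4.76 to 6.16, and Smarcc1 had a kEpiSC peak in intron 23 with a fold of 8.87.

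**Figure D5:**
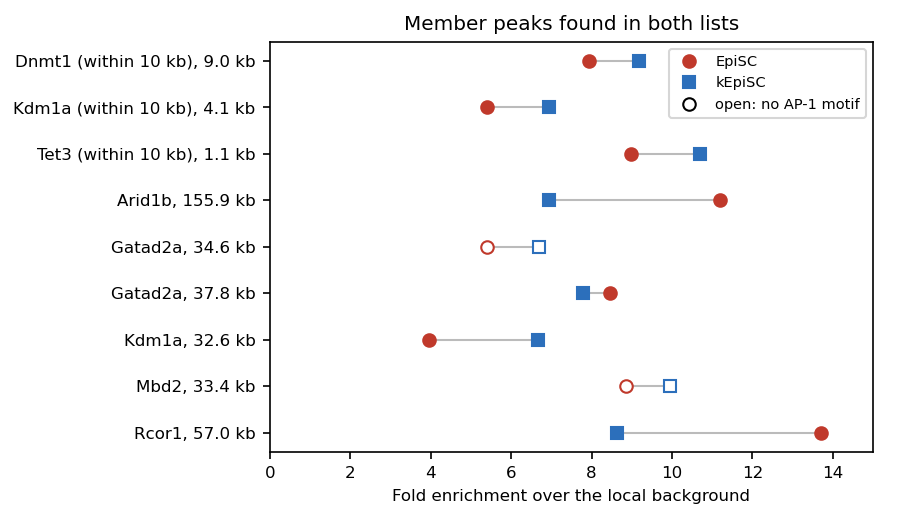
Fold enrichment over the local background of the 9 EpiSC peaks near or inside members that overlap a kEpiSC peak (circles EpiSC, squares kEpiSC, a line joining each pair), with the distance from the TSS beside the gene name. Open symbols hold no AP-1 word in the central 200 bp. The 3 peaks within 10 kb of a TSS have folds of 5.40 to 8.99 in EpiSCs and 6.95 to 10.7 in kEpiSCs. Folds come from separately called lists and are placed side by side without a test.

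The members' median distances to a c-Jun peak were shorter than those of all genes, which were not weighted to gene length for this measure. Their median distance to the nearest EpiSC peak was 18267 bp, against 48300 bp for all genes, and to the nearest kEpiSC peak 59199 bp, against 133613 bp. Within 50 kb, 34 of the 45 genes had an EpiSC peak (75.6%, interval 61.3 to 85.8), where 50.7% of all genes did, 53.4% at the members' lengths and 51.1% of genes with as many neighbouring genes within 50 kb. NuRD had 12 of 13 (92.3%, interval 66.7 to 98.6, against 54.5% at their lengths), all but Hdac2, and Polycomb 6 of 7 (85.7%, against 53.2%). The other genes of the same complexes, described last, had one in 62 of 89 cases (69.7%, against 54.1% at their lengths). Conversely, 8 members had no EpiSC peak within 100 kb (17.8%, interval 9.29 to 31.3), against 34.1% of all genes and 30.4% at the members' lengths: Hdac2, Tbl1xr1, Sin3a, Ezh2, Smarcb1, Arid1b, Dnmt3l and Tet1. The 50 kb limit was one of several tried, and the counts at the other limits are given with the processing alternatives.

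The other genes of the same complexes gave a similar picture in EpiSCs. Of 89 such genes, 29 (32.6%, interval 23.7 to 42.9) had an EpiSC peak within 10 kb, against 23.5% at their lengths, and 6 (6.74%) had a kEpiSC peak, against 8.27% of all genes and 8.98% at their lengths. Among the Polycomb genes the members had 1 of 7 and the others, PRC1 subunits and PRC2 partners, 11 of 25 (44%, interval 26.7 to 62.9, against 23.3% at their lengths), and the difference was not tested. Phf19, a Polycomb-like PRC2 subunit, had the highest score among these, with a peak 6412 bp upstream, a fold of 10.9 in EpiSCs and 9.96 in kEpiSCs. The PRC2 subunit Aebp2 had a fold of 8.99 in EpiSCs and, at a different place, 11 in kEpiSCs, and Mtf2, another Polycomb-like protein, had a peak 3 bp from a TSS with a fold of 8.33. The counts were 2 of 7 for NuRD (28.6%, against 23.1% at their lengths), 4 of 17 for the corepressors (23.5%, against 23.4%), 6 of 20 for BAF (30%, against 24%), 2 of 10 for DNA methylation (20%, against 23.2%) and 4 of 10 for H3K9 methylation (40%, against 23.6%). Their highest-scoring peaks were near Sall4 (fold 6.99), Gps2 (6.12), Ss18 (6.71), Gadd45a (6.88) and Cbx1 (5.29, at 8203 bp from its TSS). The Gps2 peak lay 7670 bp from the Gps2 TSS, in the promoter of Eif5a and 268 bp from the Eif5a TSS. Suv39h1, an H3K9 trimethylase, had a peak 65 bp from its TSS in kEpiSCs with a fold of 5.15 and none within 100 kb in EpiSCs.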

How the data were processed

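c-Jun ChIP-seq of EpiSCs and kEpiSCs was used, 2 ChIP and 2 input libraries per line. The authors aligned to mm10 (Bowtie2, unique alignments) and ran MACS2 with its defaults. Tools in the submitters' processing notes were bcl2fastq, Bowtie2, SAMtools, MACS and bedtools, with version numbers not given in the sources used here. How the ChIP replicates were combined is not stated. The deposited columns give, per peak, a score made from the q-value, the fold enrichment at the summit with 1 added to reads and background, and the −log10 p-value and −log10 q-value. Fold and p-value were solved for the reads at the summit, which met both for 100% of peaks within 0.01, and 1 read counted as 1.0 in EpiSCs and 0.775 in kEpiSCs.

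TSSs, gene bodies and exons were those of curated RefSeq transcripts (assembly GRCm38.p6, which is mm10). Peaks sharing 1 bp or more overlapped. AP-1 words (TGACTCA or TGAGTCA, each the reverse complement of the other) and the CRE word TGACGTCA were looked for, on either strand, in 200 bp around the peak centre; neither word contains the other. Wilson intervals (95%) stand beside shares and cover counting error alone. Shares of all genes were weighted to the members' classes of gene length (10 in all), in place of drawn lists, and no test across genes was made. Members, other genes and rules were chosen with earlier results of these data known. The text gives every member with a peak within 10 kb, the distance for the others, and up to 3 other genes per complex. Scripts used Python 3.11.15, pandas 2.3.3 and pysam 0.24.0 and were tested on simulated data. Alternatives covered the distance, gene assignment, annotation, overlap, searched window and higher-scoring part of each list (50%), and an assignment to the nearest TSS within 10 kb was added after seeing the data. RefSeq promoters run from 250 bases before to 50 after the start.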

Additional observations from a re-analysis of the deposited data

How the results depend on the processing

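Of 63 results under alternatives, 41 stayed within the range set for them and 22 moved. With peaks within 5 kb in place of 10 kb, 9 members had an EpiSC peak (15.3% of all genes), with Polycomb at 0 and BAF at 1. Within 50 kb the counts were 34 in EpiSCs and 20 in kEpiSCs (27% of all genes), with NuRD at 12, the corepressors at 5, Polycomb at 6, DNA methylation at 6 and H3K9 methylation at 1. When each peak was given to its nearest TSS at any distance, 23 members had an EpiSC and 13 a kEpiSC peak (33.5% and 17.3% of all genes), with NuRD at 8, the corepressors at 5 and Polycomb at 3. The higher-scoring 50% of the peaks of each list left 8 members in EpiSCs and 2 in kEpiSCs (10.7% and 3.82% of all genes), with the corepressors at 1 and Polycomb at 0. With all RefSeq transcripts Polycomb had 2, and with each peak given only to its nearest TSS within 10 kb, an alternative chosen after seeing the data, Polycomb had 0 and all members 11 (18.2% of all genes). When an overlap had to cover 50% of the EpiSC peak, 1 of the 19 member peaks (5.26%) was shared with kEpiSCs in place of 3 (15.8%, interval 5.52 to 37.6). With an overlap of 1 bp, 23.2% of the 5180 EpiSC peaks within 10 kb of any protein-coding TSS were shared. Their share under the 50% rule was not computed. The cause of these moves was not tested beyond the wider or narrower limits themselves. No paired analysis was possible because the deposited lists, 1 per line, do not keep the replicates apart, and no replicate could be left out for the same reason. Peaks of 5 to 10 reads lie near the limit of detection, so missing peaks, above all in kEpiSCs, are not absences.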
